A study of Mus musculus with 3 samples.

Results

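The 10 genes described here are the 4 Janus kinases (Jak1, Jak2, Jak3 and Tyk2), the common gamma chain γc (Il2rg), the transcription factors Stat5a, Stat5b and Stat6, and the feedback inhibitors Socs1 and Cish. They were chosen by name for their role in cytokine signalling, with earlier results of these libraries known. All 10 of them were found among the 25759 genes of each table. Each was also among the 7017 genes whose RPKM exceeded 5 in 1 or more of the libraries, called expressed genes below. RPKM is the number of reads on the exons of a gene, scaled to the length of the exons and to the reads of the library.

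T follicular regulatory (TFR) cells, here B220-CD4+CXCR5+GITRhi cells with the Blimp-GFP reporter switched on, were sorted from spleen and mesenteric lymph nodes of mice given NP-KLH in alum (125 µg), boosted on day 7 and taken on day 10. One RNA-seq library was made per genotype (n = 1), so there was no spread between mice and no test of genotypes could be made. The library labelled N came from Nfatc1fl/fl.Prdm1gfp/+.FIC mice, whose floxed Nfatc1 is a target of Cre. The library labelled αA came from Nfatc1caaA.Prdm1gfp/+.FIC mice, which express a constitutively active NFATc1/αA, and the library labelled PαA from Nfatc1caaA.Prdm1gfp/fl.FIC mice, in which the other Prdm1 allele, encoding Blimp-1, is floxed as well. Every genotype carries FIC, a Cre made from the Foxp3 locus that was also active in some conventional T cells, and a Prdm1 allele that reads out GFP. Animals of both sexes on a C57BL/6J background were used in the study, and the number of mice behind a library is not given in the sources used here.

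The γc chain is the shared subunit of the receptors for IL-2, IL-4, IL-7, IL-9, IL-15 and IL-21. It carries JAK3, while JAK1 sits on the partner chain, and the activated kinases phosphorylate STAT5 (IL-2, IL-7, IL-9, IL-15), STAT6 (IL-4) or STAT3 (IL-21). JAK2 and TYK2 serve other receptors, such as those for IFN-γ, IL-12, IL-23 and type I interferon. CISH and SOCS1 are induced by STATs and damp the receptors that switched them on. In regulatory T cells IL-2 acting through STAT5 maintains Foxp3, and in follicular T cells strong IL-2 signalling holds back the follicular program through Blimp-1.

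The N library held 29726219 reads, that of αA 27239921 and that of PαA 25465829. The library checks did not follow the labels for Nfatc1, which had an RPKM of 63.6 (N), 62.9 (αA) and 32.4 (PαA), so the names of the libraries are those of their labels and no more. Reads on a remaining part of a floxed or transgenic gene are counted with the rest, so these values check the labels only in part. Prdm1 had an RPKM of 25.6, 24.9 and 10.0. The 10 markers of TFR and T cells were expressed in each library, with a summed RPKM of 2073 in N, 1913 in αA and 1291 in PαA, and all 10 had a lower value in PαA than in αA. Foxp3 itself had an RPKM of 32.7, 20.9 and 15.3. Markers of other cells differed too. The 5 erythroid and platelet genes summed to 293, 1129 and 1071 RPKM, the 7 B-cell and plasma-cell genes to 61.0, 72.2 and 115, the 6 myeloid genes in the tables to 269, 169 and 237 (with S100a9 at 0 reads in αA and Itgam not analysed here), and the 5 CD8 T-cell and NK-cell genes to 15.8, 19.6 and 17.3. The part of these differences in the results that follow was not tested. In sorted bulk samples, fewer cells that express a gene and less RNA of it per cell cannot be told apart.

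Jak2 was the member that differed most between the libraries, with its highest level in N and its lowest in PαA. Socs1 went the other way between αA and PαA. Il2rg and Stat5b were nearly level across the libraries. In αA against N all 10 members were lower beyond counting error, where 53.8% of expressed genes were lower and 20.1% were higher. In PαA against αA 8 members were lower (43.4% of expressed genes) and 2, Socs1 and Cish, were higher (30.2%). In PαA against N 9 were lower (56.7%) and 1, Socs1, was higher (24.7%). Beyond counting error means that the exact Clopper-Pearson 95% interval of the ratio, taken from the share of reads in each library, does not include 0 on the log2 scale. These intervals cover counting error only, and PCR copies are counted as reads.

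These directions depend on how the libraries are scaled. The median expressed gene was itself lower in the first library of each comparison, by a log2 ratio of -0.14 in αA against N, -0.06 in PαA against αA and -0.19 in PαA against N. The median over the members was -0.25, -0.13 and -0.42. With TMM factors, which bring the bulk of the genes level, the median of the expressed genes was 0.02, 0.01 and 0.04, that of the members -0.09, -0.06 and -0.19, and the members split into 7 lower and 3 higher, 8 and 2, and 6 and 4. With the counting intervals moved by the same factors, 5 members were lower and 2 higher beyond counting error in αA against N, 5 and 2 in PαA against αA, and 6 and 3 in PαA against N. The shares of all expressed genes with these factors are not given here, so these counts are not set against a background. Tyk2, Il2rg and Stat5b changed sign with TMM factors in αA against N, and Il2rg, Stat5b and Cish in PαA against N. Jak2, Jak1, Jak3 and Stat5a kept a lower value in αA than in N and in PαA than in N under each scaling used.

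Past 2-fold lay 1 member in αA against N (Jak2; 4.25% of expressed genes), 0 members in PαA against αA (4.63%) and 1 in PαA against N (Jak2; 10.3%). Jak2 is also a gene that the study itself picked out from these libraries, so its difference is a description of them. The comparisons are not independent of each other: each library enters 2 of them, and the log2 ratio of PαA to N is the sum of the other two.

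**Figure D1:**
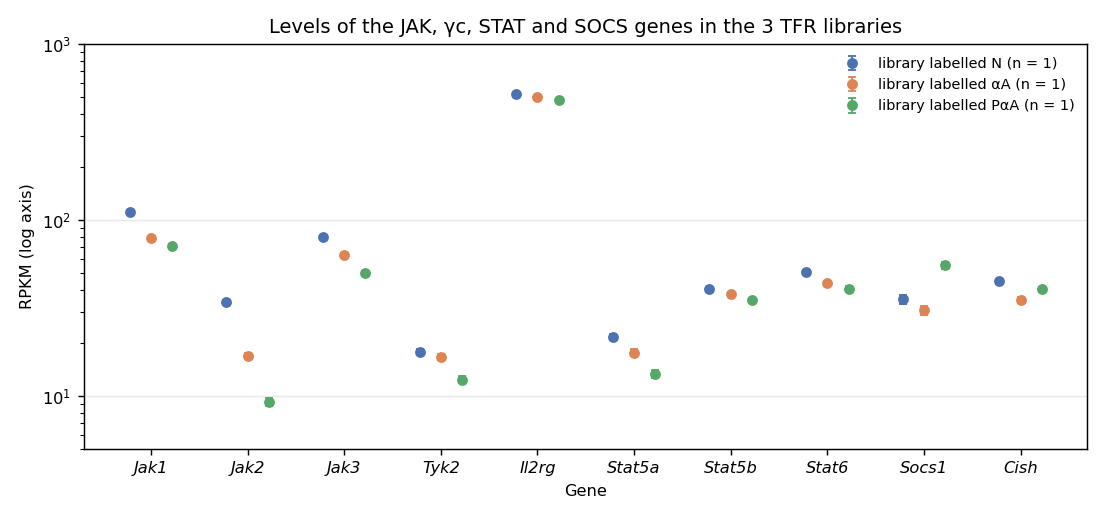
RPKM (log axis) of the 10 genes in the libraries labelled N, αA and PαA, 1 library per genotype, with Poisson 95% intervals for counting error, most of them smaller than the points. Il2rg lies highest, between 479 and 523, and Jak2 has the widest range, from 34.3 in N to 9.24 in PαA.

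Of the receptor side, Il2rg (chrX:101264378-101268255, minus strand, GRCm38) was by far the most abundant member, at 523 RPKM in N, 503 in αA and 479 in PαA (25948, 22864 and 20378 exon reads). The log2 ratios were -0.06 (αA against N), -0.07 (PαA against αA) and -0.13 (PαA against N), the smallest range of the 10 genes. Only 6.33% of its exon reads were counted as unique. The annotated gene Gm20489 (chrX:101261405-101269023) lies on the same strand and spans it, and in the GENCODE M21 annotation 728 bases, 30.5% of the exon bases of Il2rg, are also exons of Gm20489. The tables gave Gm20489 36 reads in N, none of them unique, and 0 in the other libraries. GENCODE M21 has 2387 exon bases for Il2rg, whereas its deposited exon length is 1670. Why so few reads of Il2rg were counted as unique was not tested. The unique reads of Il2rg alone gave ratios of -0.07 (-0.18 to 0.03), -0.02 (-0.13 to 0.09) and -0.09 (-0.20 to 0.01), and each of these intervals includes 0.

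Among the kinases, Jak1, the partner-chain kinase, had 111 RPKM in N, 78.5 in αA and 70.9 in PαA (16448, 10622 and 8966 reads). Its log2 ratio was -0.50 (-0.54 to -0.47) in αA against N, -0.15 (-0.19 to -0.11) in PαA against αA and -0.65 (-0.69 to -0.61) in PαA against N. Jak3, which binds γc, had 79.9, 63.3 and 49.7 RPKM (10607, 7702 and 5648 reads), with ratios of -0.34, -0.35 and -0.69. Thus Jak1 and Jak3 had about the same total difference between N and PαA, but most of that of Jak1 lay between N and αA. The ratio of Jak3 to Jak1 RPKM was 0.717 in N, 0.806 in αA and 0.700 in PαA.

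Tyk2, which serves the receptors for type I interferon, IL-12 and IL-23, was close between N and αA, at 17.8 and 16.6 RPKM (2937 and 2522 reads), and lower in PαA at 12.4 (1753 reads). The ratios were -0.09 (-0.17 to -0.02), -0.43 (-0.52 to -0.34) and -0.52 (-0.61 to -0.44). The first of them turned to 0.07 with TMM factors and to 0.16 when centred on genes of the same length.

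Jak2 (chr19:29251828-29313080, plus strand, GRCm38; 25 exons), the kinase of the IFN-γ, IL-12 and IL-23 receptors, had an RPKM of 34.3 in N, 16.9 in αA and 9.24 in PαA, from 5122, 2311 and 1183 exon reads. All reads were unique. Each library differed from the next by far more than counting error: αA was 2.03-fold lower than N (log2 ratio -1.02, -1.09 to -0.95), PαA was 1.83-fold lower than αA (-0.87, -0.97 to -0.77), and PαA was 3.71-fold lower than N (-1.89, -1.98 to -1.80). Of the 7017 expressed genes, 65 (0.926%) had as low a ratio or a lower one in PαA against N. The first ratio sits at the 2-fold line, with an interval that holds it, and was -0.86 with TMM factors, -0.98 with a pseudocount of 1 RPKM and -0.79 after length centring. The second was -1.03 with TPM. The third stayed past 2-fold under each alternative, between -2.09 (TPM) and -1.47 (length centring).

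The make-up of the kinase set moved with Jak2. Its share of the exon reads of the 4 kinases was 14.6% in N (Clopper-Pearson 95% interval 14.2 to 15.0), 9.98% in αA (9.60 to 10.4) and 6.74% in PαA (6.37 to 7.12). Per length, Jak2 stood at 1.93 times the RPKM of Tyk2 in N, 1.01 times in αA and 0.746 times in PαA, so that the order of the lowest kinases turned round between N and PαA and could not be told in αA. Jak1 was the most abundant kinase and Jak3 the next in all 3 libraries. These within-library ratios do not depend on the scaling between libraries.

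**Figure D2:**
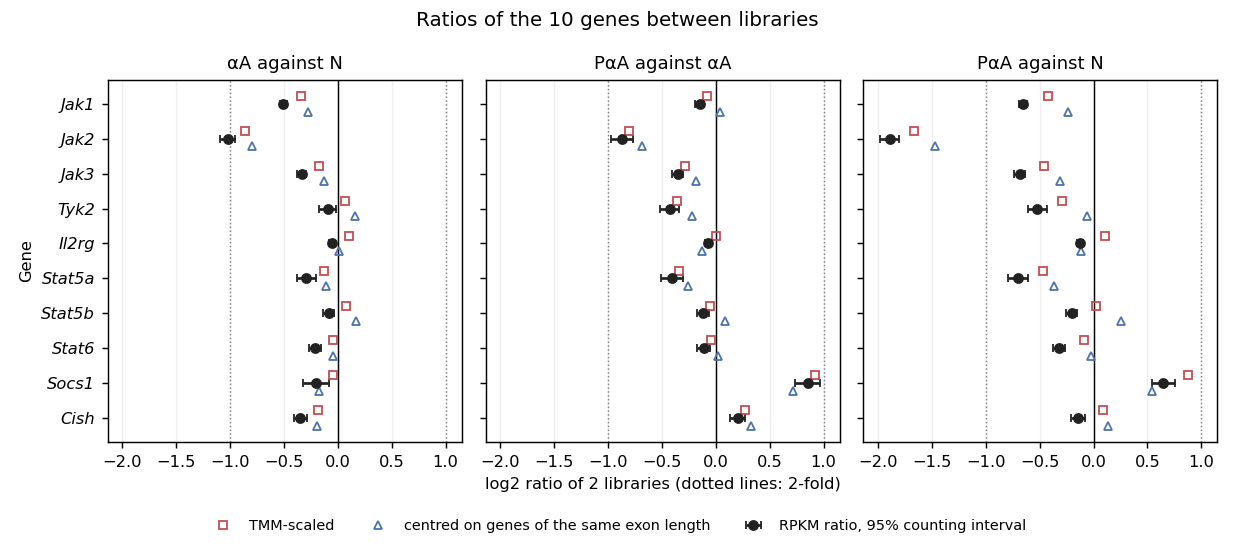
Log2 ratio of the 10 genes in the 3 comparisons, as RPKM ratio with its 95% counting interval (filled circles), after TMM scaling (open squares) and after centring on expressed genes of the same exon length (open triangles), with 1 library per genotype. Jak2 is the lowest in each panel (-1.02, -0.87 and -1.89), Socs1 the highest in the panels with PαA (0.85 and 0.65).

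The stretch of 250 bases before the RefSeq start of Jak2 is shown because NFATc1 and Blimp-1 are the factors that the genotypes alter, and because this gene carried the largest difference. It lies at chr19:29251553-29251802 (plus strand, GRCm38.p6) and is printed from 5′ to 3′ with the letters GGAAA (core of the NFAT motif) and GAAAG (core of the Blimp-1 motif) in capitals wherever they occur on either strand.

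Jak2: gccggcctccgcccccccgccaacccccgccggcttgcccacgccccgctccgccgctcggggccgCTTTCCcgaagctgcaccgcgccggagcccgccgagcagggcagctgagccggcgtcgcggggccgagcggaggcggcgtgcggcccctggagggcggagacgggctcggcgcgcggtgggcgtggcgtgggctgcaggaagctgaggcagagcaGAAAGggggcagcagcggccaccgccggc

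The GGAAA core occurred once in the 300-base window of Jak2 (250 bases before to 50 after the start), on the minus strand from position -183, where it overlaps a GAAAG core from position -184, and another GAAAG core began at -29. Such short cores are common: of the 32851 promoter windows of this length in RefSeq, 61.3% held GGAAA and 57.3% held GAAAG on either strand. Of the 10 members, 9 had a window with GGAAA (Jak1 had none) and 8 had one with GAAAG (Jak1 and Tyk2 had none). Counted by window, as in RefSeq, 9 of the 12 windows of the members held GGAAA and 8 held GAAAG. The letters describe the window and say nothing on binding, which was not measured in these libraries.

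Reads on introns of Jak2, as of several other members, did not follow the exon reads. The introns of Jak2 had 89 reads (N), 81 (αA) and 67 (PαA), which per library total is a log2 ratio of -0.01 (-0.46 to 0.44), -0.18 (-0.67 to 0.31) and -0.19 (-0.67 to 0.29). Junction reads, which cross 2 exons and so come from spliced RNA, numbered 1587, 667 and 292. Their ratios were -1.12 (-1.26 to -0.99), -1.09 (-1.30 to -0.89) and -2.22 (-2.40 to -2.04). Each was below the ratio of all exon reads, but only in PαA against N did the junction and exon intervals not overlap. Junction reads made up 31.0% (29.7 to 32.3) of the exon reads of Jak2 in N, 28.9% (27.0 to 30.8) in αA and 24.7% (22.2 to 27.2) in PαA. Over all expressed genes the shares were 26.3%, 26.5% and 27.8%.

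In PαA against N the intron ratio of Jak2 exceeded its exon ratio by 1.71 on the log2 scale (0.5 added to each count), where the median of the 3372 genes with at least 50 intron reads was 0.36 and 258 of them (7.65%) had as large a gap. In αA against N the gap was 1.01, with a median of 0.50 and 28.6% of genes at or above it. The share of gene reads on introns was 3.62% in N, 5.30% in αA and 3.91% in PαA over the whole libraries, so intron reads move with the library. What the intron reads come from was not tested.

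The gap was not particular to Jak2. In PαA against N it was 1.93 for Jak1, whose intron reads numbered 63, 98 and 131 while its exon reads were fewer in each of these libraries in turn, 1.36 for Stat5a (37, 55 and 50 intron reads) and 0.96 for Il2rg (174, 141 and 266), here without an added count. For Stat6 it was 3.03, from only 5, 7 and 28 intron reads. In αA against N it was 1.27 for Jak1, 1.00 for Tyk2 and 0.99 for Stat5a. Tyk2, with 57, 98 and 20 intron reads, and Socs1, with 58, 67 and 24, had the opposite gap in PαA against N (-0.77 and -1.70).

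Junction reads gave ratios close to the exon ratios for Jak1, Jak3, Tyk2, Il2rg, Stat5b, Stat6 and Cish, with a gap of at most 0.13 log2 units, and Stat5a reached a gap of 0.16. Socs1, a gene of 2 exons, had only 46, 18 and 40 junction reads. These gave -1.23 (-2.10 to -0.41) in αA against N, 1.25 (0.41 to 2.14) in PαA against αA and 0.02 (-0.63 to 0.66) in PαA against N, where its exon reads gave -0.20, 0.85 and 0.65. The higher level of Socs1 in PαA than in N was thus not seen in its few junction reads, whose interval runs to 0.66, just past the exon ratio.

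**Figure D3:**
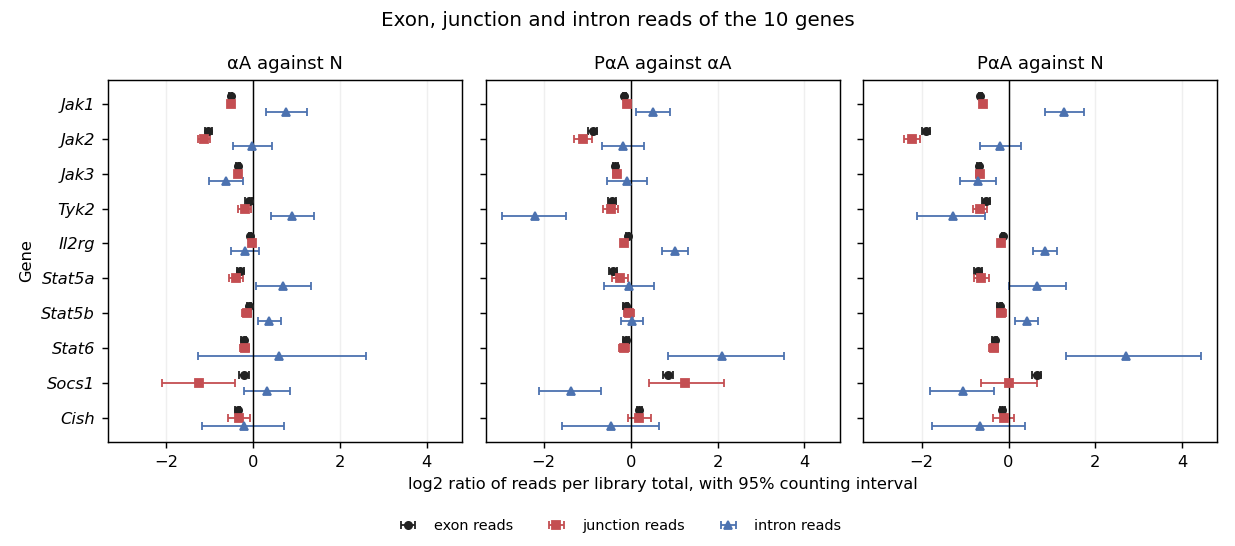
Log2 ratio of exon reads (circles), junction reads (squares) and intron reads (triangles) of the 10 genes, per library total, with 95% counting intervals and 1 library per genotype. For Jak2 in PαA against N the exon ratio is -1.89, the junction ratio -2.22 and the intron ratio -0.19.

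The 5 expressed genes whose pair of ratios (αA against N and PαA against αA) lay nearest to that of Jak2, out of 6878 with at least 100 reads in each library, were Arhgap18, Il1r2, Upf1, Apol9b and Sec63, at a distance of 0.048 to 0.19 log2 units. Arhgap18, a RhoGAP, had 7.10, 3.56 and 2.00 RPKM in N, αA and PαA. Il1r2, the decoy receptor for IL-1, had 65.5, 33.3 and 19.7 RPKM. Upf1, an RNA helicase of nonsense-mediated decay, had 12.1, 6.12 and 3.74 RPKM, and Sec63, of the ER translocon, 5.06, 2.73 and 1.65. Only 50.7% of the reads of Apol9b were unique, and its level is uncertain for that reason. The likeness rests on 3 libraries.

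Of the transcription factors, Stat5b, which carries most STAT5 transcript here, was at 40.3 RPKM in N, 38.0 in αA and 35.0 in PαA (6636, 5735 and 4942 reads), with ratios of -0.08, -0.12 and -0.20. Its relative Stat5a was at 21.5, 17.6 and 13.3 RPKM (2624, 1966 and 1386 reads), with ratios of -0.29 (-0.38 to -0.21), -0.41 (-0.51 to -0.31) and -0.70 (-0.79 to -0.60). The share of Stat5a in the reads of the pair was 28.3% in N (27.4 to 29.3), 25.5% in αA (24.6 to 26.5) and 21.9% in PαA (20.9 to 22.9), and these intervals do not overlap. The 2 genes are close copies that lie side by side on chromosome 11, and reads that match both can be split between them. With unique reads alone (84.5% of those of Stat5a and 88.3% of those of Stat5b) the shares were 27.6%, 24.6% and 21.1%, in the same order.

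Stat6, the factor of IL-4 signalling, had 50.8, 43.9 and 40.7 RPKM (5701, 4517 and 3910 reads). Its ratios were -0.21 (-0.27 to -0.15), -0.11 (-0.17 to -0.05) and -0.32 (-0.38 to -0.26). In αA against N and in PαA against N, it lay near the median expressed gene, with ratios of -0.05 and -0.09 after TMM scaling.

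The inhibitors were the members in which PαA stood above αA. Socs1, which binds and blocks JAKs, had 35.3 RPKM in N, 30.7 in αA and 55.3 in PαA (1280, 1019 and 1719 reads). PαA was 1.80-fold above αA (log2 ratio 0.85, 0.74 to 0.96) and 1.57-fold above N (0.65, 0.54 to 0.75), and αA lay a little below N (-0.20, -0.32 to -0.08). Under the other scalings and after length centring, the ratio of PαA to αA was between 0.69 (TPM) and 0.92 (size factors), and it did not reach 2-fold in any of them.

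Cish, an early target of STAT5 that acts on the IL-2 receptor, was highest in N at 44.7 RPKM, lowest in αA at 35.2 and between these in PαA at 40.5 (4851, 3495 and 3760 reads). Its ratios were -0.35 (-0.41 to -0.28), 0.20 (0.14 to 0.27) and -0.14 (-0.21 to -0.08), the last of which was 0.08 with TMM factors and 0.14 after length centring. With TPM the ratio of PαA to αA was 0.04 (-0.03 to 0.10), so that Cish was then not higher beyond counting error. The 2 inhibitors therefore shared the direction of PαA against αA but not its size. Socs1 was at 0.789 times the RPKM of Cish in N, 0.872 times in αA and 1.37 times in PαA. Set against Jak1, the RPKM of Socs1 was 0.317 times that of the kinase in N, 0.390 times in αA and 0.780 times in PαA. RPKM is scaled to exon length, but neither set of ratios is centred on the trend of the library ratios with exon length, in which these genes differ. In PαA against N, the log2 ratio typical of expressed genes as long as Socs1 was 0.10. It was -0.28 for the length of Cish and -0.42 for that of Jak1.

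The start regions of these inhibitors are shown since they are the members with a higher level in PαA than in αA. For Socs1 the 250 bases before the RefSeq start lie at chr16:10785537-10785786 (minus strand, GRCm38.p6), with GGAAA and GAAAG in capitals as above. For Cish only the 30 bases around the RefSeq start are printed (chr9:107296649-107296678, plus strand), with the letters TTCNNNGAA, the GAS motif that STAT5 binds, in capitals.

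Socs1: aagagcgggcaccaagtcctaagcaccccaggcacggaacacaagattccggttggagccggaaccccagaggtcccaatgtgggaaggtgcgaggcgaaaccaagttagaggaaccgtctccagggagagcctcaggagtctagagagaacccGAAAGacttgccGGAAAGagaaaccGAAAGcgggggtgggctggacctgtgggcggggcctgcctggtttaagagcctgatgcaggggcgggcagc

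Cish: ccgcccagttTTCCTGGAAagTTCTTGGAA

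The window of Socs1 held 3 GAAAG cores, from positions -96, -83 and -71, the middle of which overlaps a GGAAA core from -84. One of the windows of Stat5b also held 3 GAAAG cores, and the same overlap was found in Jak2, Il2rg and Cish. Repeats of this core are common, with 2 or more of them in 23.2% of all 32851 windows. The share with 3 or more is not given here. Cish had GAS matches from positions 1 and 12, each of which overlaps a GGAAA core. It was the only 1 of the 10 members with a GAS match in a window, and of all 32851 windows 8.30% had such a match and 0.457% had 2 or more. The wider spacing TTCNNNNGAA, which STAT6 also binds, was in the windows of 0 members and in 6.95% of all windows. The deposited gene of Cish starts upstream of the RefSeq start, and matches outside the windows were not searched.

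Longer genes tended to be lower in the first library of each comparison, and the members are mostly long, with exon lengths from 1220 bases (Socs1) and 1670 (Il2rg) to 5562 (Tyk2), beside a median of 2966 over expressed genes. Expressed genes of over 4500 bases had a median log2 ratio of -0.27 in αA against N, -0.22 in PαA against αA and -0.52 in PαA against N, and those of up to 1500 bases -0.02, 0.17 and 0.16. Centred on expressed genes of the same length, the median of the members was -0.12, -0.05 and -0.09, with 7, 5 and 7 members lower. Jak2 stayed the lowest at -0.79, -0.68 and -1.47, and Socs1 stayed above 0 in PαA at 0.72 and 0.54. By contrast Stat5b changed sign in all 3 comparisons (0.17, 0.09 and 0.26). Jak1 turned to 0.04 and Stat6 to 0.02 in PαA against αA.

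**Figure D4:**
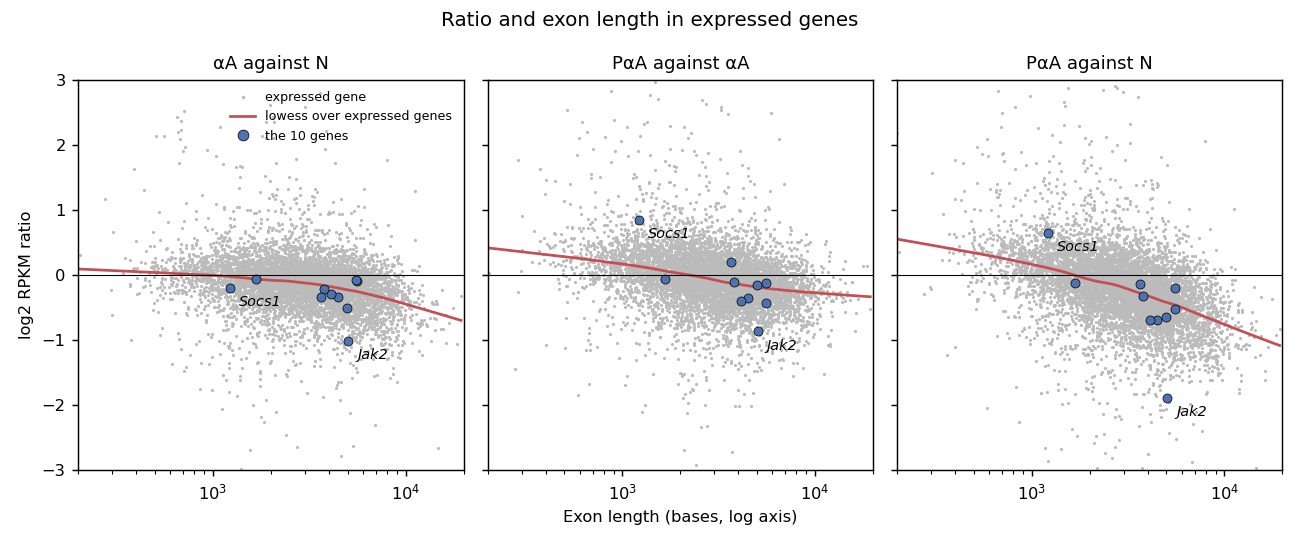
Log2 RPKM ratio against exon length (bases, log axis) for expressed genes (grey, 7000 to 7004 genes with a ratio, of which 15 to 31 lie outside the axes), a lowess line and the 10 members (blue), with 1 library per genotype. The line falls with length in each panel, and Jak2 lies below it by 0.79, 0.68 and 1.47 log2 units.

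The genes around the members, in lists of receptors, ligands and regulators, were counted in the same way. Of 68 listed genes 50 were expressed. Past 2-fold lay 2 higher and 4 lower in αA against N (12% of the 50, beside 4.25% of all expressed genes), 5 and 1 in PαA against αA (12%, beside 4.63%) and 3 and 7 in PαA against N (20%, beside 10.3%). The last split turned round with the scaling, to 6 higher and 2 lower with TMM factors or size factors and 5 and 4 after length centring, and was 1 and 7 with TPM. In the other comparisons the splits with TMM factors were 2 and 3 (αA against N) and 6 and 1 (PαA against αA). Their median ratios were -0.13, -0.20 and -0.29, and 0.03, -0.13 and -0.06 with TMM factors. The lists were set up with earlier results of these libraries known, so the shares are a description. Some of the counted genes passed the RPKM filter only through the library where they were highest. These were Il23r, Ifngr2 and Sh2b3 through PαA, and Il4, Bcl2 and Socs5 through N. Shares of all expressed genes are given with RPKM only.

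Of the 7 chains that pair with γc, 6 were expressed, with median ratios of 0.20, -0.29 and -0.20. Il7r, the IL-7 receptor chain, had 82.9 RPKM in N, 64.2 in αA and 164 in PαA, and was past 2-fold in PαA against αA (1.35). With TMM factors it was also past 2-fold in PαA against N (1.21). Il9r had 6.08, 1.94 and 5.28 RPKM and was past 2-fold in αA against N (-1.65) and in PαA against αA (1.44). These 2 chains were high in PαA relative to αA, as the inhibitors were, while the other 4 were lower, among them Il2rb (344, 392 and 346 RPKM) and Il21r (58.2, 69.7 and 36.8 RPKM). Il2ra, the high-affinity chain of the IL-2 receptor, had 33.5, 38.6 and 29.1 RPKM.

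Of the 6 γc cytokines, 2 were expressed. Il4 had 8.69, 2.54 and 4.15 RPKM (254, 68 and 104 reads), past 2-fold in αA against N (-1.77) and in PαA against N (-1.07, but -0.84 with TMM factors). Il21 had 21.5, 24.7 and 15.2 RPKM. Il2 had at most 29 reads in a library, and Il9 had 0 reads in each, for which 3 reads were taken as the limit of detection.

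Stat2, Stat3 and Stat4 were lower in αA and in PαA than in N, also with TMM factors, with medians of -0.59 and -0.60, and the median of PαA against αA was -0.35. After length centring Stat3 was at 0.05 in αA against N and -0.08 in PαA against N, while Stat2 and Stat4 stayed below 0. Stat3, the factor of IL-21 and IL-6 signalling, had 40.9, 34.6 and 27.1 RPKM, and Stat4, that of IL-12, had 52.6, 34.8 and 36.3 RPKM. Stat2 had 12.1, 8.04 and 5.66 RPKM and was past 2-fold in PαA against N (-1.09), a call lost with TMM factors (-0.87), size factors (-0.85) and length centring (-0.73). Of the 6 other SOCS genes 4 were expressed, with medians of -0.04, -0.51 and -0.38. Among these Socs5 was past 2-fold in αA against N (-1.21) and in PαA against N (-1.86), at 8.39, 3.63 and 2.32 RPKM, and Socs3 had 27.4, 42.0 and 32.7 RPKM. In PαA against αA, where Socs1 was higher, 3 of these 4 genes had a ratio below 0 beyond counting error (43.4% of all expressed genes did).

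Of 13 PIAS genes, phosphatases and adaptors 11 were expressed, with medians of -0.21, -0.29 and -0.45. Ptprc (CD45), a phosphatase that acts on JAKs, had 263, 185 and 115 RPKM and was the 1 gene of that list past 2-fold, in PαA against N (-1.20). With TMM factors it was not (-0.97), and the adaptor Sh2b3 was instead, higher by 1.06. Ptpn2, which removes phosphate from JAK1 and JAK3, had 14.2, 12.3 and 10.5 RPKM.

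Of the 21 other receptor chains that use JAKs 13 were expressed, with medians of 0.02, -0.16 and -0.24. The chains past 2-fold, which signal through JAK2 or TYK2 among others, differed in both directions. Il23r had 0.730, 2.08 and 6.04 RPKM (54, 141 and 383 reads), higher by 1.51, 1.54 and 3.05. It passed the RPKM filter only through PαA, where it was highest, as did Ifngr2. Il6st (gp130) had 6.85, 16.7 and 5.81 RPKM, with ratios of 1.29 and -1.53. Ifngr2 was past 2-fold in PαA against αA (1.04; 3.69, 2.44 and 5.01 RPKM), whereas Ifnar1 (19.4, 12.2 and 7.96 RPKM) and Crlf2 (136, 112 and 63.7 RPKM) were past it in PαA against N (-1.29 and -1.09). Crlf2 was not past it with TMM factors (-0.86) and Ifnar1 not after length centring (-0.97), whereas Ifngr1 was past it with TMM factors (1.22). Ifngr2 was not past it with TPM (0.87).

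Of 12 genes known as STAT5 targets 11 were expressed, with medians of -0.10, 0.07 and -0.06. The survival gene Bcl2 had 5.95, 2.83 and 3.93 RPKM (-1.07 in αA against N, but -0.91 with TMM factors and -0.65 after length centring). The kinase Pim2 had 10.7, 10.8 and 21.8 RPKM (1.02 in PαA against αA and 1.03 in PαA against N, but 0.86 and 0.83 with TPM), the cytokine gene Lta 329, 365 and 574 reads (1.03 in PαA against N, but 0.83 with TPM and 0.96 after length centring) and the protease Gzmb 48.2, 33.4 and 21.2 RPKM (-1.18 in PαA against N, but -0.95 with TMM factors). In PαA against αA, 4 of the 11 were higher and 4 were lower beyond counting error, near the 30.2% and 43.4% of all expressed genes.

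**Figure D5:**
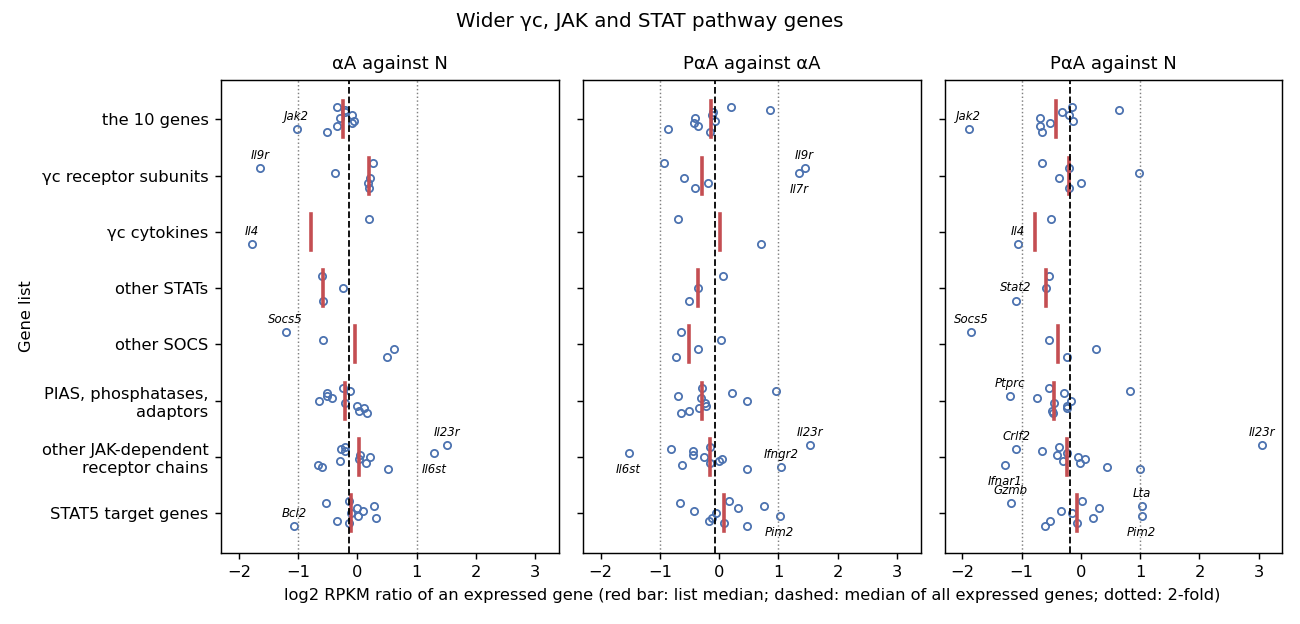
Log2 RPKM ratio of the expressed genes of each list (circles), with the list median (red bar), the median of all expressed genes (dashed line) and the 2-fold lines (dotted), with 1 library per genotype. Named genes lie past 2-fold with RPKM, among them Jak2 (-1.02 and -1.89) and Il23r (1.51, 1.54 and 3.05).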

How the data were processed

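The 3 RNA-seq libraries of sorted TFR cells were made by the authors from poly(A) RNA and read from a single end, 1 per genotype. After adapter trimming, CLC Genomics Workbench placed the reads on GRCm38 and assigned them to genes under its default RNA-Seq options. The annotation release is not given in the sources used here. The authors deposited, for 25759 genes, raw counts of total exon, unique exon, junction, intron and gene reads, with RPKM and TPM, whose decimal commas were read as points. The column named expression value equals the total exon count, and the filter of the study (above 5 in at least 1 library, more than 2-fold) was read as RPKM. Reads that match several places are in the total and not in the unique count.

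The total behind each library's RPKM was computed back from a gene's reads, length and RPKM. Ratios of 2 libraries carry exact Clopper-Pearson 95% intervals on read shares, and levels Poisson intervals. With 1 library per genotype no test and no p-value was computed. The members and gene lists were chosen with earlier results of these data known. Named are all members, listed genes past 2-fold, at most 4 more of a list by RPKM, the targeted genes and the 5 genes nearest to the member of widest range. Il2ra, Il2, Il9, Ptpn2, Foxp3, Sh2b3, Ifngr1 and the CD8 T-cell and NK-cell markers were named after their values were seen. Values of 1 listed gene are not reported here.

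Alternatives were TPM, TMM factors (edgeR 4.0.16, R 4.3.3, used only for these factors), median-of-ratios size factors, unique reads, pseudocounts of 1 and 0.1 RPKM, a 1.5-fold threshold, RPKM minimums of 1 and 10 or none, and, chosen after seeing the data, centring on exon length (lowess, fraction 0.3) and the scalings of the listed genes and of the counting intervals. Counts for αA against N were also simulated as Poisson draws, with no spread between mice and no trend with exon length. Among these, 200 of 200 genes changed 3-fold passed the filter, as did 0 of 6333 unchanged genes. Of 6533 intervals, 6229 (95.3%) held the true ratio. Such draws check the code only and say nothing on the calls in the real libraries. Promoter windows are from RefSeq (GRCm38.p6) and matched all 10 members, Stat5a and Stat5b with 2 windows each. Intervals came from scipy 1.17.1, the lowess from statsmodels 0.14.6 and figures from matplotlib 3.10.9, under Python 3.11.15 (numpy 2.4.6, pandas 2.3.3).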

Additional observations from a re-analysis of the deposited data

How the results depend on the processing

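The count of members past 2-fold in αA against N was 1 with RPKM and 0 with TMM factors, size factors, a pseudocount of 1 RPKM or length centring. In PαA against αA it was 0 with RPKM, 1 with TPM and 2 at a 1.5-fold threshold. In PαA against N it was 1, and 5 at a 1.5-fold threshold. The shares of all expressed genes at these alternative settings are not given here, so the counts are not set against a background. The median log2 ratio of the members in αA against N was -0.25, and -0.089 with TMM factors, -0.078 with size factors and -0.12 with length centring. In PαA against αA it was -0.13, and -0.30 with TPM, -0.064 with TMM factors, -0.060 with size factors and -0.053 with length centring. In PαA against N it was -0.42, and -0.62 with TPM, -0.19 with TMM factors, -0.18 with size factors and -0.089 with length centring. For single members, 103 of 210 alternative values lay outside the counting interval. With size factors, the signs that changed were those under TMM factors and that of Il2rg in PαA against αA. The cause of these shifts was not tested.

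No paired analysis was possible because each genotype has 1 library; nor was any library left out. Depth does not limit the members, which had at least 1019 exon reads in each library. The lack of replicates does: differences between mice, sorts and library preparations cannot be told apart from those between genotypes.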
